A study of Mus musculus with 1 sample.

Results

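The genes described here encode the subunits of the oxidative phosphorylation machinery, and they were followed across the progenitors of mouse bone marrow in 1 single-cell RNA-seq library. They were chosen by symbol (mt-Nd, mt-Co, mt-Atp and mt-Cyt, and Nduf without the Ndufaf assembly factors, Uqcr, Cox4i, Cox5, Cox6 without Cox6a2, Cox7, Cox8 and Atp5, without pseudogene names), which gave 93 of the 32285 genes of the table. Of these, 80 lie in the nucleus and 13 in the mitochondrial genome. The cells were Lin- Kit+ marrow cells from femora and tibiae, a sort that keeps stem cells and early progenitors, of C57BL/6 mice carrying Brd9 fl/fl without Cre, so Brd9 was intact. Per the series text, primary mice had received 3 doses of 20 mg/kg pIpC, an inducer of interferon, at 4 weeks of age, and were prepared 8 weeks after it. The sample's own labels speak instead of a transplant with a CD45.2(+) donor and a CD45.1(+) CD45.2(-) recipient, treated 4 weeks after the transplant, and which applies was not settled. For the single-cell libraries the paper's methods name Brd9 fl/fl mice and Mx1-Cre mice 8 weeks after deletion, without a transplant. For its primary mice the paper gives a later age at pIpC than the series text, which was not settled either. The number of mice pooled was not given in the sources used here.

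Oxidative phosphorylation moves electrons from NADH and succinate through complexes I, II, III and IV to oxygen, and complex V uses the resulting proton gradient to make ATP. Complexes I, III, IV and V are built from both genomes, so each needs transcripts made in the nucleus and transcripts made inside the mitochondrion, while complex II is wholly nuclear. Quiescent haematopoietic stem cells are known for relying largely on glycolysis, and differentiating erythroid cells for a high demand for mitochondria, where haem synthesis starts.

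By symbol, the members comprised 38 nuclear and 7 mitochondrial genes of complex I, 8 and 1 of complex III, 17 and 3 of complex IV, and 17 and 2 of complex V. Over all cells 89 members had at least 50 UMIs (unique molecular identifiers, each marking 1 captured RNA molecule). The other 4 were Cox7b2 with 12 UMIs, Ndufa4l2 with 5, Cox8c with 2 and Cox8b with 1. The nuclear members lie on 19 chromosomes, and 1 of them, Ndufa13, overlaps another counted gene on its strand (Yjefn3), which leaves its count uncertain.

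The promoters of 65 nuclear members were found in a RefSeq table (build GRCm38.p6) and searched on both strands for letters bound by factors known for nuclear respiratory genes. CCGGAAG (ETS family, to which GABP belongs) was present at 15 of the 65 genes (23.1%) against 9.93% of all 27025 genes, GCGCATGCG (NRF1) at 8 (12.3%) against 1.95%, and AAGATGGCG (YY1) at 7 (10.8%) against 1.64%. At least 1 of these letter strings was present at 25 members (38.5%) against 12.7% of all genes. Below are the 100 bases before the RefSeq start site, 5′ to 3′ on the gene's strand. The first 4 are an abundant member of each complex with a match in this window, and the last 4 are paralogous subunits whose levels differed between progenitors. Capitals mark matches, which stand for letters only and not for binding.
Ndufb7, complex I, chr8:83566658-83566757, plus strand: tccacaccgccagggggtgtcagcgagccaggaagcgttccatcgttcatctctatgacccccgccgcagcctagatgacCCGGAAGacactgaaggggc
Uqcrh, complex III, chr4:116075071-116075170, minus strand: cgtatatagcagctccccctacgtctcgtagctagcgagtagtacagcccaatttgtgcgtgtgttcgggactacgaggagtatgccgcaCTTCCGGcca
Cox6b1, complex IV, chr7:30626115-30626214, minus strand: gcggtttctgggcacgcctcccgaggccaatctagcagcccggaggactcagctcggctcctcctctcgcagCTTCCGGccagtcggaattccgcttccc
Atp5h, complex V, chr11:115419920-115420019, minus strand: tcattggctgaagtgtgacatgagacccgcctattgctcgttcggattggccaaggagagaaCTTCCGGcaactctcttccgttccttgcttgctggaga
Cox6b2, complex IV, chr7:4753095-4753194, minus strand: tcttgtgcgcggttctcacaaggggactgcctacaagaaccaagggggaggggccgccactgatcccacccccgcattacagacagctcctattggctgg
Cox7a2l, complex IV, chr17:83514334-83514433, minus strand: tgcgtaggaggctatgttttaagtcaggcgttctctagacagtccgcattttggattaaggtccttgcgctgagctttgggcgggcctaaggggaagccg
Atp5g1, complex V, chr11:96075632-96075731, minus strand: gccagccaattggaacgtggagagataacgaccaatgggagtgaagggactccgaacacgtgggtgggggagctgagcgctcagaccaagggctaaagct
Atp5g2, complex V, chr15:102671048-102671147, minus strand: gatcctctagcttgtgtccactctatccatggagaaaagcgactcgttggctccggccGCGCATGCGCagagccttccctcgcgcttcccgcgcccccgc
In Ndufb7, Uqcrh, Cox6b1 and Atp5h the ETS letters began 20, 10, 28 and 38 bases before the RefSeq start site. In Atp5g2 the NRF1 letters matched on both strands, 42 and 41 bases before it, and overlap each other. The gene annotation used for positions starts Ndufb7 and Cox6b1 further upstream, so that their matches lie inside the annotated genes. Atp5g1, Cox6b2 and Cox7a2l had no match of the 3 strings in this window.

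Of 8817 barcodes, 7645 passed the study's cell filter, holding 151852381 UMIs with a median of 18696 per cell. Kit had a UMI in 65.8% of cells, while Cd3e and Ly6g, markers of mature T cells and neutrophils, had one in 2 and 7 cells. Cells were gated by lists of 8 lineage markers, none of which is a member, after each cell had been thinned to 5000 UMIs. The gates were 818 stem-like cells (Hlf, Procr, Mecom and others), 218 lymphoid-primed multipotent-like cells, 331 megakaryocyte-like, 241 early and 796 later erythroid-like, 1590 granulocyte-monocyte progenitor-like (GMP-like), 1041 monocyte-like and 821 neutrophil-like cells, together 76.6% of the cells. Depth differed between gates, from a median of 8804 UMIs per stem-like cell to 33894 per later erythroid-like cell. With 1 library there is no replicate, so no test was made, and every interval is a 95% interval that covers counting error only. Levels are in CPM, the usual counts scaled to the total UMIs of the gate. In this 3′ assay a molecule counts once whatever its length, so CPM values of different genes can be set side by side as molecules captured.

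Stem-like cells stood at opposite ends for the 2 genomes. The nuclear members together made up the smallest share of UMIs in stem-like cells, at 18029 CPM (interval 17938 to 18120.2). They stood at 22467 CPM in lymphoid-primed, 23398 in megakaryocyte-like, 28228 in early erythroid-like, 28711 in GMP-like, 28739.8 in monocyte-like, 31165 in neutrophil-like and 32338 (32269 to 32406) in later erythroid-like cells. GMP-like and monocyte-like cells lay closest together in that order, with ratios to stem-like of 1.59 each. The mitochondrial members made up their largest share in stem-like cells, at 46515 CPM (46369 to 46661), against 42331 in later erythroid-like, 39415 in lymphoid-primed, 37656 in early erythroid-like, 35285 in megakaryocyte-like, 31002 in GMP-like, 30964 in monocyte-like and 28295 in neutrophil-like cells.

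Summed over the gate, stem-like cells held 2.58 mitochondrial UMIs of the pathway for each nuclear one (2.56 to 2.60). The ratio was 1.75 in lymphoid-primed, 1.51 in megakaryocyte-like, 1.33 in early and 1.31 in later erythroid-like, 1.08 in GMP-like and monocyte-like, and 0.908 (0.904 to 0.911) in neutrophil-like cells. Over all their cells, neutrophil-like cells were the gate in which nuclear transcripts outnumbered mitochondrial ones, but this did not hold at matched depth: among cells with 8000 to 16000 UMIs their ratio was 1.08 (1.07 to 1.10). In the deepest of 3 equal parts by depth, GMP-like and monocyte-like cells were also under 1 (0.990 and 0.981). Single cells followed their gates. In 821 of 821 neutrophil-like, 793 of 796 later erythroid-like and 1037 of 1041 monocyte-like cells the nuclear share was above the stem-like median of 1.69%, and this held for 199 of 241 early erythroid-like cells (82.6%) and 176 of 218 lymphoid-primed cells (80.7%). The mitochondrial-to-nuclear ratio was above the stem-like median of 2.83 in 35 of 218 lymphoid-primed, 9 of 241 early erythroid-like, 12 of 1590 GMP-like and 1 of 821 neutrophil-like cells.

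**Figure D1:**
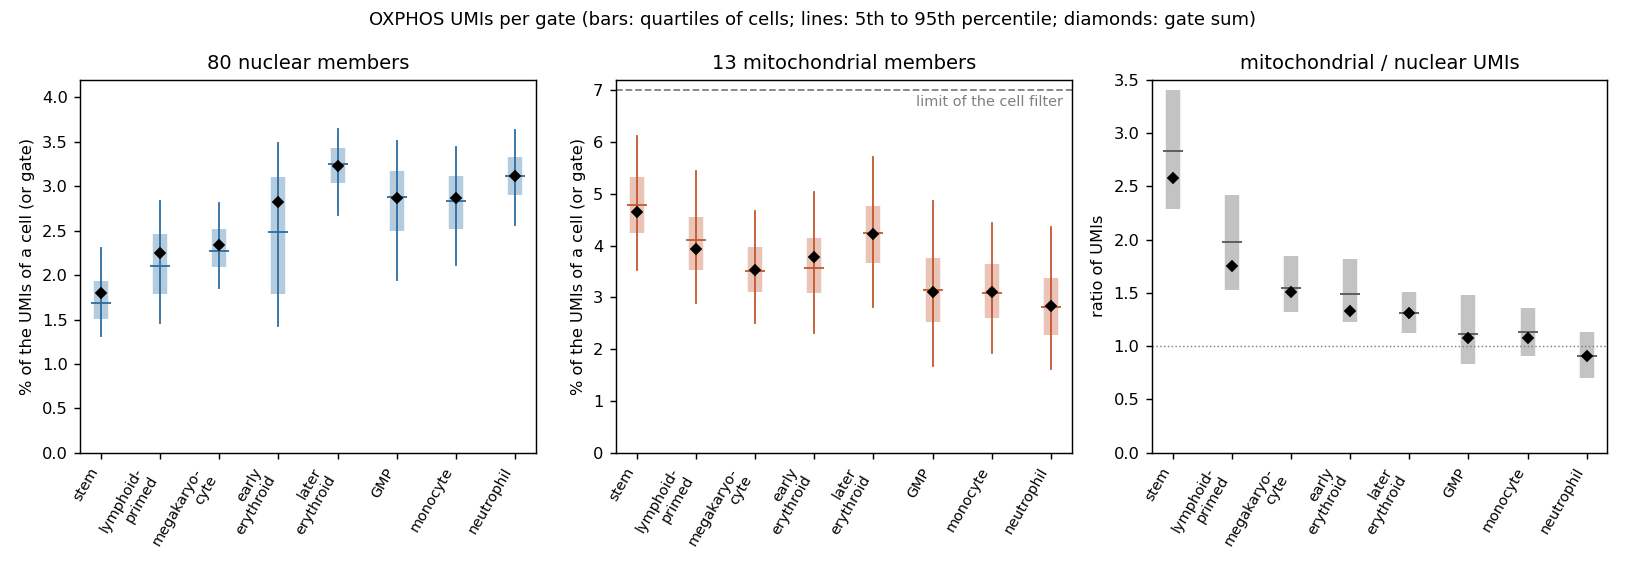
Share of a cell's UMIs (percent) from the 80 nuclear members (left), from the 13 mitochondrial members (middle), and the ratio of mitochondrial to nuclear UMIs (right) in 8 gates of 1 library; thick bars are quartiles over cells, dashes medians, thin lines (first 2 panels) the 5th to 95th percentile, and diamonds the sum over the gate. Stem-like cells have the lowest nuclear share (1.80% of gate UMIs) and the highest mitochondrial share (4.65%), and the ratio runs from 2.58 to 0.908 in neutrophil-like cells.

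Counted per cell, both sets were smallest in stem-like cells. The median stem-like cell held 147 nuclear and 433 mitochondrial UMIs of the pathway, the median neutrophil-like cell 656 and 565, and the median later erythroid-like cell 1106 and 1401. The number of molecules in a cell cannot be told apart here from the efficiency of capture.

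Depth moved with these sums inside the gates too. With each gate split into 3 parts by UMIs per cell, from the shallowest to the deepest part of stem-like cells the mitochondrial-to-nuclear ratio went from 3.21 to 2.16, in lymphoid-primed cells from 2.52 to 1.43, and in later erythroid-like cells from 1.33 to 1.28. Among cells with 8000 to 16000 UMIs alone, a window chosen after the data were seen, the order of the extremes was kept, with ratios of 2.62 in 448 stem-like, 2.21 in 101 lymphoid-primed and 1.08 in 112 neutrophil-like cells. In that window the nuclear sum over stem-like was 1.71 in neutrophil-like, 1.53 in later erythroid-like, 1.45 in monocyte-like, 1.40 in GMP-like and 1.25 in megakaryocyte-like cells. It was 1.12 (1.10 to 1.14) in early erythroid-like and 1.09 (1.08 to 1.11) in lymphoid-primed cells, against 1.57 and 1.25 over all their cells. Across all alternatives run, the early erythroid-like value ranged from 1.05 to 1.59. The window held 70 early and 34 later erythroid-like cells, and the part of depth in these values was not tested.

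**Figure D2:**
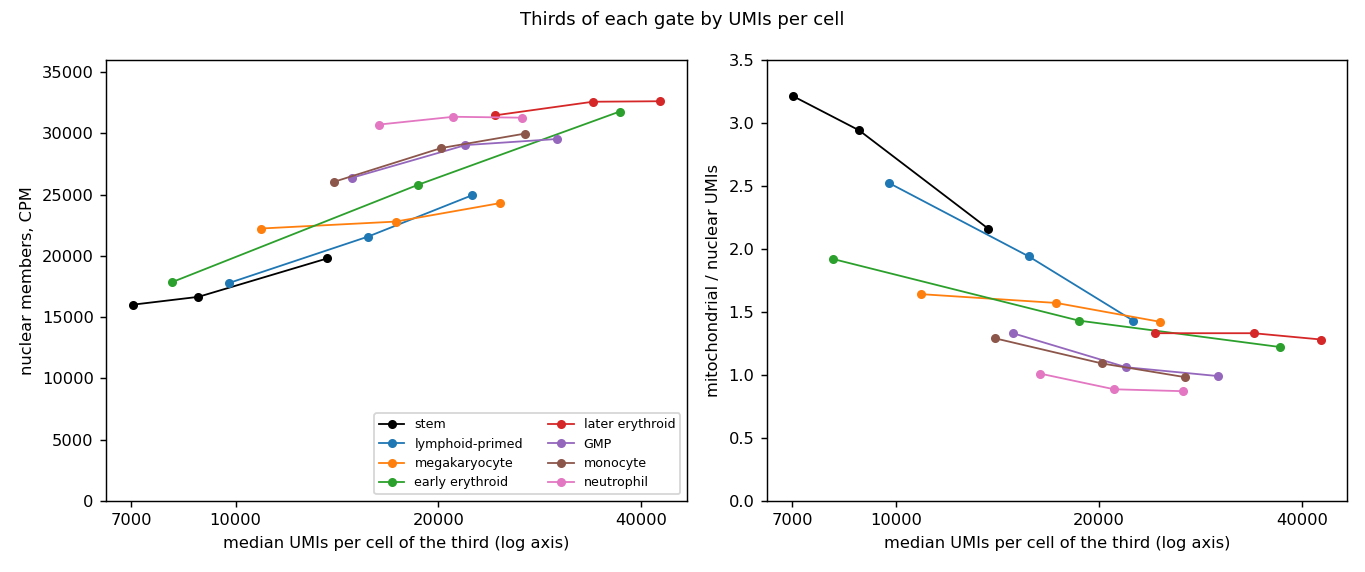
Cells of each gate split into 3 equal parts by UMIs per cell; the horizontal axis (log) is the median UMIs of a part, the vertical axes are the nuclear members in CPM (left) and the ratio of mitochondrial to nuclear UMIs (right). Stem-like cells run from 3.21 down to 2.16 and neutrophil-like cells from 1.01 down to 0.870, with no value shared between the 2 gates.

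Within the stem-like gate, in a comparison added after the data were seen, 438 cells had at least 2 UMIs of 12 cycle genes and 179 had none. The ratio of mitochondrial to nuclear UMIs was 3.02 (2.97 to 3.06) in the cells without cycle transcripts and 2.32 (2.30 to 2.33) in the cycling ones, at median depths of 8189 and 10199.5 UMIs. The 201 cells between these limits stood at 3.09 (3.05 to 3.13), at a median depth of 8030 UMIs. The part of depth in these values was not tested. The nuclear members with enough counts had a median ratio of 1.17 (cycling over not cycling), against 1.01 over 9571 genes, and 2 of 74 were higher by 1.5-fold or more (9.58% of all genes were) and 0 lower (6.26%). Those 2 were Cox6b2 (1.62, 1.29 to 2.04) and Cox5a (1.52, 1.36 to 1.70). Cox7a2l lay at the other end, at 472 CPM in cycling and 565 CPM in non-cycling cells (0.836, 0.774 to 0.903). Among the mitochondrial members mt-Co1 was at 8281 and 9858 CPM (0.840).

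Gene by gene, most nuclear members were higher outside the stem-like gate. A gene was counted as higher or lower at 1.5-fold, among genes with at least 50 UMIs in the gates compared. In the 7 gates together 54 of 76 nuclear members were higher than in stem-like cells, where 17.0% of 13026 genes were, and 1 was lower, where 39.4% of all genes were. Fewer members were higher in the window of 8000 to 16000 UMIs, where 12.7% of all genes were, and that count is given with the alternatives below. The median nuclear member stood at 1.62, the median of all genes at 0.800. Stem-like cells had the lowest level of 65 of these 76 members, while 36 were highest in later erythroid-like and 27 in neutrophil-like cells. All 7 comparisons share the stem-like cells.

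In later erythroid-like cells 58 of 74 nuclear members were higher (20.9% of all genes) and 1 lower (45.0%), with a median of 1.81. In early erythroid-like cells 44 of 74 were higher (16.7%) and 1 lower (36.5%), but in the window of 8000 to 16000 UMIs 6 of 74 were higher, against 10.6% of all genes there, so the share of members was not above the background. In that window 11 nuclear members of this gate also changed side of 1, none of them with both intervals excluding 1. In neutrophil-like cells 52 of 74 were higher (12.0%) and 1 lower (51.7%). In GMP-like cells 48 of 75 were higher (14.1%) and 1 lower (39.3%), with 23 of 74 higher in the depth window (10.4% of all genes there). In monocyte-like cells 47 of 75 were higher (15.8%) and 2 lower (39.9%). The count was 11 of 74 in megakaryocyte-like cells (9.93%) with 0 lower (23.0%). In the depth window 8 of 74 were higher in that gate, against 8.95% of all genes, a share near the background. Lymphoid-primed cells had 6 of 74 higher (9.74%) and 0 lower (26.4%). That share was near the background over all cells, and 1 of 74 was higher in the depth window (9.0% of all genes there). In lymphoid-primed cells the median member was at 1.22, against 0.899 over all genes, and at 1.05 in the window. Most members are abundant genes, and the backgrounds differ among such genes: with at least 1000 UMIs in the gates compared, 24.0% of all genes were higher and 24.8% lower in neutrophil-like cells, 34.8% and 19.4% in later erythroid-like, 27.5% and 18.0% in early erythroid-like cells, and 12.9% were higher in megakaryocyte-like and 10.7% in lymphoid-primed cells. At that minimum 52, 58, 43, 11 and 6 nuclear members were higher in these gates.

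**Figure D3:**
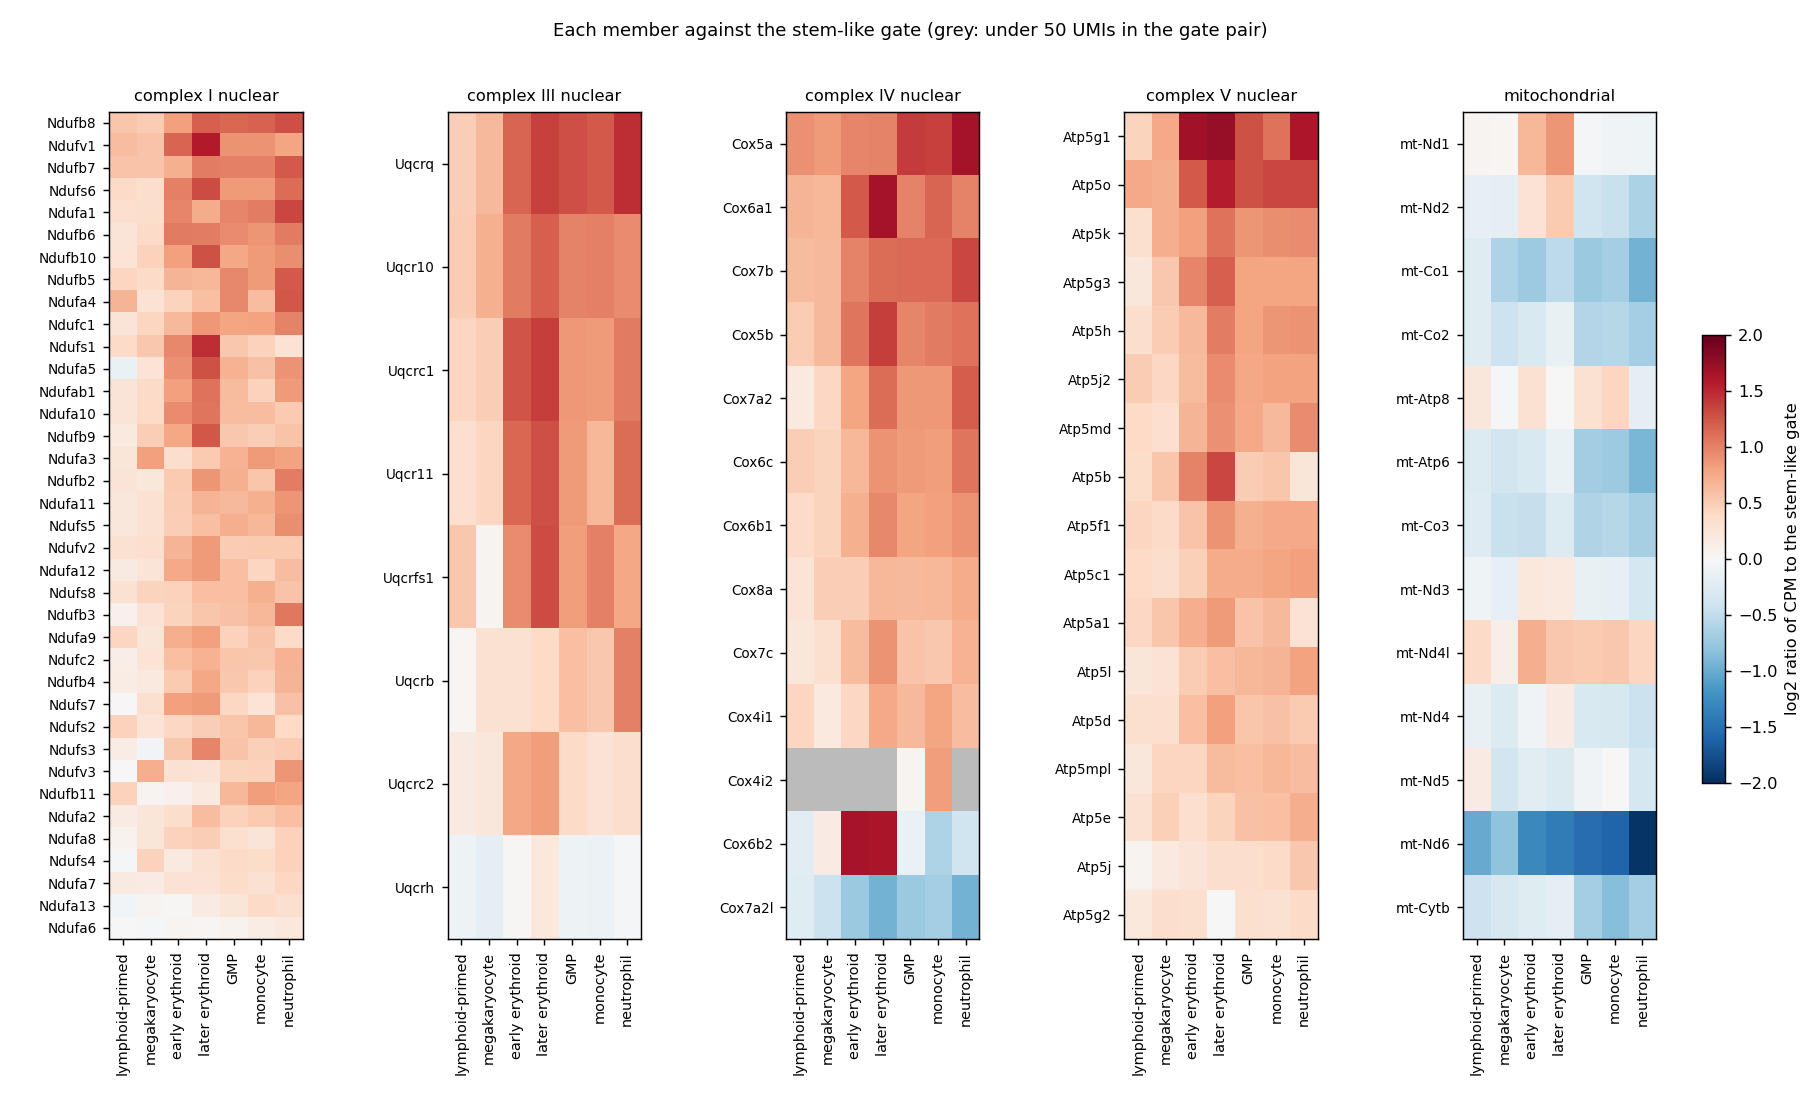
Log2 ratio of CPM in each of 7 gates (columns) to the stem-like gate, for the nuclear members of complexes I, III, IV and V, ordered by their mean, and the 13 mitochondrial members in genome order; red is higher and blue lower than in stem-like cells, and grey marks under 50 UMIs in the pair of gates. Most nuclear rows are red, Cox7a2l is blue in every gate (0.517 to 0.841), and mt-Nd6 is the darkest blue row (0.258 in neutrophil-like cells).

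Complex I accepts electrons from NADH. Its nuclear members by symbol, Ndufa4 among them, summed to 5790.4 CPM in stem-like cells, 9939 in later erythroid-like (1.72, 1.70 to 1.73) and 10184 in neutrophil-like cells (1.76, 1.74 to 1.78). Ndufv1, which carries the NADH-binding site, was at 77.5 CPM in stem-like, 232 in later erythroid-like (2.99, 2.76 to 3.25) and 134 in neutrophil-like cells. Ndufs1, the large iron-sulfur subunit, was at 36.9, 103 and 45.1 CPM in the same gates. Ndufa4, now known as a subunit attached to complex IV, went the other way between the last 2, with 489.9 CPM in stem-like, 739.9 in later erythroid-like and 1155 in neutrophil-like cells (2.36, 2.28 to 2.44). The gap in Ndufa4 between those 2 gates exceeds the gap between their complex I sums, so the order of these sums rests on it. Some subunits hardly differed between gates: Ndufa6 lay between 201 and 236 CPM in all 8. Ndufa13 was at 1.02 (0.952 to 1.09) in early erythroid-like, Ndufs3 at 0.964 (0.862 to 1.08) in megakaryocyte-like and Ndufa5 at 0.914 (0.801 to 1.04) in lymphoid-primed cells over stem-like cells, each interval including 1. Ndufa3, a small accessory subunit, was among the furthest above stem-like cells in the megakaryocyte-like gate (174 CPM, 1.76).

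Complex III passes electrons to cytochrome c. Its nuclear sum was 1877 CPM in stem-like, 3344 in later erythroid-like (1.78) and 3126 in neutrophil-like cells (1.67). Uqcrq, a small subunit, was at 176 CPM in stem-like cells and 491 in neutrophil-like cells (2.79, 2.64 to 2.95). The core protein Uqcrc1 was at 106 CPM in stem-like and 255 in early erythroid-like cells (2.39, 2.19 to 2.61), with a ratio of 1.60 in the depth window. The Rieske iron-sulfur protein Uqcrfs1 was at 109 CPM in stem-like and 268 in later erythroid-like cells (2.47, 2.30 to 2.65). Uqcrh, the hinge protein, was nearly level: 657 CPM in stem-like cells and 573 (megakaryocyte-like) to 763 (later erythroid-like) elsewhere.

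Complex IV reduces oxygen. Its nuclear sum, without Ndufa4, was 4463 CPM in stem-like, 8091 in later erythroid-like (1.81) and 7940.0 in neutrophil-like cells (1.78). The order of the last 2 gates would turn if Ndufa4 were counted here. The nuclear subunits Cox5a and Cox5b differed by lineage. Cox5a was at 304 CPM in stem-like, 604 in later erythroid-like and 968 in neutrophil-like cells (3.18, 3.05 to 3.32, over stem-like), and Cox5b at 327, 851 and 695 CPM. Cox5a thus gave 41.5% of the UMIs of the pair in later erythroid-like and 58.2% in neutrophil-like cells. The 2 are separate subunits and not alternative forms, so this share is no choice between forms. Cox6a1 was at 146 CPM in stem-like and 464 in later erythroid-like cells (3.18, 3.00 to 3.37). Cox8a, Cox7b and Cox4i1 carried nearly all UMIs of their sets: the tissue-restricted Cox8b, Cox8c and Cox7b2 stayed at or under 12 UMIs over all cells.

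The product of Cox7a2l (SCAF1) is described as joining complexes III and IV into supercomplexes. Whether it does so in the mouse strain used here was not tested, and its transcript level is no measure of supercomplexes. Cox7a2l was the exception among the nuclear members. It was the only one of the 76 that was highest in stem-like cells, at 501 CPM, with 422 in lymphoid-primed, 370.3 in megakaryocyte-like, 314 in monocyte-like, 301 in early erythroid-like, 299 in GMP-like, 262 in neutrophil-like and 259 in later erythroid-like cells. Its paralogue Cox7a2, a subunit of complex IV, ran the opposite way, from 249 CPM in stem-like to 579 in neutrophil-like cells. Of the UMIs of Cox7a1, Cox7a2 and Cox7a2l together, Cox7a2l made up 66.7% in stem-like, 59.3% in lymphoid-primed, 52.7% in megakaryocyte-like, 32.3% in later erythroid-like and 31.1% in neutrophil-like cells. Among cells of 8000 to 16000 UMIs the Cox7a2l ratio to stem-like was 0.575 (0.518 to 0.638) in neutrophil-like and 0.612 (0.510 to 0.730) in later erythroid-like cells, but 0.974 (0.888 to 1.07) in lymphoid-primed cells.

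Cox6b2, described as the testis form of a subunit at the contact between the paired complex IV units, was highest in the erythroid gates, though present in every gate. It was at 254 CPM in early and 253 CPM in later erythroid-like cells, 91.4 in megakaryocyte-like, 81.3 in stem-like, 73.8 in GMP-like, 70.3 in lymphoid-primed, 61.9 in neutrophil-like and 52.9 in monocyte-like cells. The erythroid gates stood 3.12 and 3.11 times above stem-like cells, and the monocyte-like gate below them (0.651, 0.591 to 0.716). Its share of the Cox6b pair was 30.9% and 27.4% in the erythroid gates, 19.1% in stem-like and 7.95% in monocyte-like cells. The depth window gave 2.14 (1.73 to 2.63) for early and 2.86 (2.24 to 3.62) for later erythroid-like cells over stem-like cells, and 0.855 (0.714 to 1.02) for monocyte-like cells. GMP-like cells changed side there, from 0.908 over all cells to 1.20 (1.03 to 1.40), and neutrophil-like cells were at 1.03 (0.828 to 1.28).

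Cox4i2, the hypoxia-linked form of Cox4i1, was rare, with 317 UMIs over all cells against 176354 of Cox4i1. It was at 5.77 CPM in monocyte-like cells (123 UMIs in 99 of 1041 cells), 3.34 in GMP-like and 3.22 in stem-like cells. In later erythroid-like cells 2 of 796 cells held a UMI of it. The share of the Cox4i pair was 0.427% (0.355 to 0.510) in monocyte-like, 0.410% (0.270 to 0.596) in stem-like and 0.00570% in later erythroid-like cells. The stem-like and monocyte-like shares have intervals that overlap. Free RNA in droplets also gives such low counts, and the part of it here was not tested.

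Complex V is the ATP synthase. Its nuclear sum was 5899 CPM in stem-like, 10964 in later erythroid-like (1.86, 1.84 to 1.88) and 9915 in neutrophil-like cells (1.68). The catalytic core was highest in later erythroid-like cells. Atp5b, the catalytic beta subunit, was at 528 CPM in stem-like, 1051 in early and 1332 in later erythroid-like (2.52, 2.44 to 2.60), 776 in monocyte-like, 748 in GMP-like and 621 in neutrophil-like cells (1.18, 1.14 to 1.22). Atp5a1, the alpha subunit, was at 431, 712, 776, 671, 637 and 526 CPM in the same gates. In the depth window Atp5b over stem-like was 2.10 (1.90 to 2.32) in later erythroid-like cells, but 1.31 in both early erythroid-like and GMP-like and 1.34 in monocyte-like cells, so the early gate no longer stood out. Atp5a1 there was highest in monocyte-like cells (1.48, 1.39 to 1.58), with 1.43 (1.25 to 1.63) in later erythroid-like cells, and these intervals overlap. Atp5o, the stalk subunit that confers sensitivity to oligomycin, was at 211 CPM in stem-like, 624 in later erythroid-like (2.96, 2.82 to 3.11) and 531 in both monocyte-like and neutrophil-like cells (2.52 in each).

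Atp5g1, Atp5g2 and Atp5g3 encode the same mature c subunit of the rotor with different import sequences, and their balance differed between gates. Atp5g1 was at 339 CPM in stem-like, 462 in lymphoid-primed, 578 in megakaryocyte-like, 719 in monocyte-like, 824 in GMP-like, 1046 in neutrophil-like, 1082 in early and 1136 in later erythroid-like cells (3.35, 3.22 to 3.48). Atp5g2 was at 641 CPM in stem-like and 635 in later erythroid-like cells (0.990, 0.960 to 1.02), and between 746 and 841 in the other gates. Of the UMIs of the 3 genes, Atp5g2 made up 53.4% in stem-like and 27.9% in later erythroid-like cells, while Atp5g1 made up 28.3% in stem-like and 49.6% to 50.4% (its interval) in later erythroid-like cells. In the depth window the Atp5g1 ratio to stem-like was 2.99 (2.78 to 3.21) in neutrophil-like, 2.64 (2.36 to 2.96) in later and 1.75 (1.58 to 1.95) in early erythroid-like cells, and 0.976 (0.871 to 1.09) in lymphoid-primed cells. Atp5g1 there stayed under Atp5g2 in early erythroid-like (584 and 682 CPM) and GMP-like cells (613 and 749.6 CPM).

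**Figure D4:**
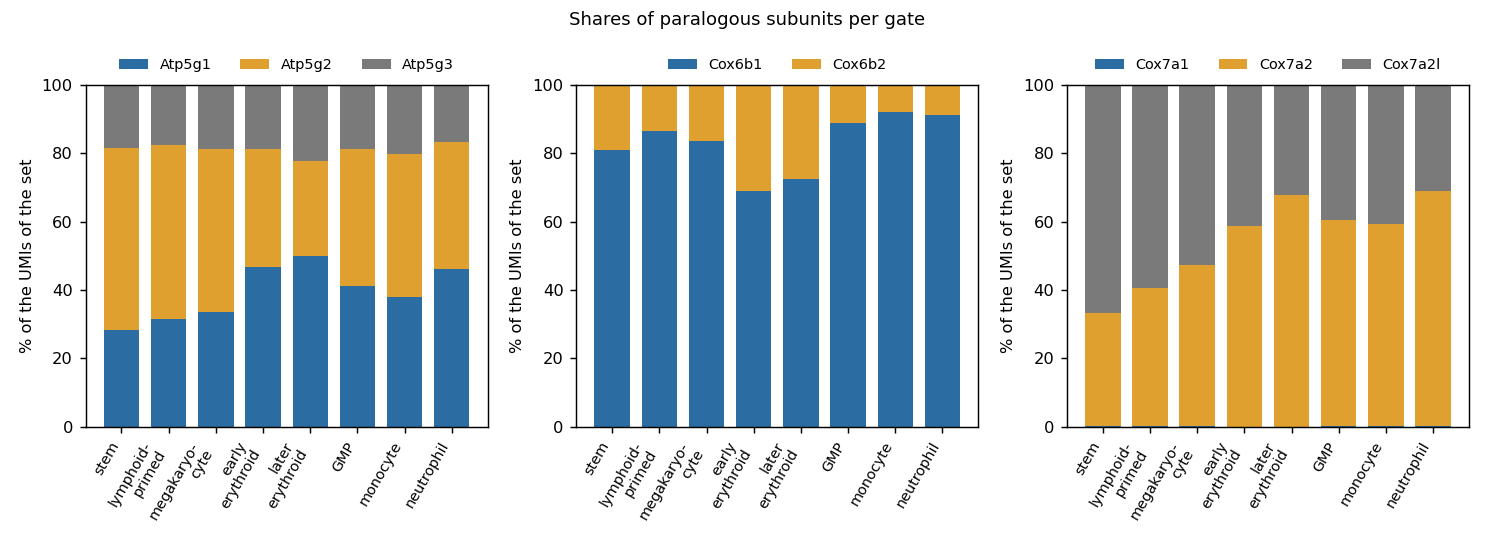
Share of the UMIs (percent) that each paralogue contributes to its set in 8 gates. Over all cells Atp5g1 passes Atp5g2 in the erythroid, GMP-like and neutrophil-like gates (at matched depth in the later erythroid-like and neutrophil-like gates), Cox6b2 reaches 30.9% of its pair in early erythroid-like cells, and Cox7a2l goes from 66.7% of its set in stem-like to 31.1% in neutrophil-like cells.

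The gates with the largest share of nuclear members, later erythroid-like and neutrophil-like cells, held most of these members within 1.5-fold of each other. Set directly against each other, which was also added after the data were seen, the nuclear members had a median ratio of 1.03 (later erythroid-like over neutrophil-like), against 1.17 over 10783 genes. Of 74 members 6 were higher in the erythroid gate, where 34.8% of all genes were, and 6 lower, where 24.6% were, so that fewer members than genes at large passed the fold either way. The 3 furthest towards the erythroid gate were Cox6b2 (4.08, 3.83 to 4.36), Ndufs1 (2.28, 2.11 to 2.48) and Atp5b (2.14, 2.10 to 2.19). The 3 furthest towards the neutrophil gate were Cox5a (0.624, 0.611 to 0.638), Ndufa4 (0.641, 0.628 to 0.653) and Uqcrb (0.654, 0.636 to 0.672), the last a small subunit of complex III. All 13 mitochondrial members had a ratio above 1, with a median of 1.46 and a range from 1.05 to 2.20 (mt-Nd2). At 1.5-fold 4 of 13 were higher in later erythroid-like cells and 0 lower, which is not above the shares of all genes.

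The mitochondrial genome is transcribed as long precursors from both strands, cut at the tRNAs between the genes, and 12 of the 13 members here are read from 1 strand. Their annotation (GENCODE M21, GRCm38) places the coding genes between chrM:2751 and chrM:15288. Some overlap: mt-Atp8 and mt-Atp6 share 43 bases at chrM:7927-7969 on the plus strand, and mt-Nd4l and mt-Nd4 share 7. The shared stretch of mt-Atp8 and mt-Atp6, shown because a read inside it belongs to both genes, is below.
mt-Atp8 and mt-Atp6, shared bases: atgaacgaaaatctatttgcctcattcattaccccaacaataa
These pairs are known to sit on common mRNAs, so the counts of mt-Atp8 (58.0 CPM in stem-like cells against 9353 for mt-Atp6) and of mt-Nd4l (137 against 1957 for mt-Nd4) and their ratios are uncertain.

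The mitochondrial mRNAs differed among themselves. In the 7 gates together 0 of 13 were higher by 1.5-fold, where 17.0% of all genes were, and 2 lower, where 39.4% were. The median was 0.880 against 0.800 over all genes. The complex IV mRNAs had ratios to stem-like under 1 in each of the 7 gates, though not all of them passed 1.5-fold. mt-Co1 stood at 8938 CPM in stem-like, 7528 in lymphoid-primed, 6203 in later erythroid-like, 5808 in megakaryocyte-like, 5559 in monocyte-like, 5387 in early erythroid-like, 5323 in GMP-like and 4637 in neutrophil-like cells (0.519, 0.514 to 0.524). mt-Co3, the most abundant member, was at 10269 CPM in stem-like and 6471 in neutrophil-like cells (0.630). mt-Co2, mt-Atp6 and mt-Cytb (cytochrome b of complex III) likewise had ratios under 1 in every gate, from 0.621 to 0.906, from 0.528 to 0.912 and from 0.554 to 0.872. The upper values, in later erythroid-like cells, did not pass 1.5-fold and lay above the median of all genes there (0.756).

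Several complex I mRNAs differed from these in the erythroid gates. mt-Nd1, first in the genome after the ribosomal RNA genes, was at 1837 CPM in stem-like, 2904 in early erythroid-like (1.58, 1.55 to 1.62) and 3404 in later erythroid-like cells (1.85, 1.82 to 1.89), and between 1726 and 1914 in the 5 other gates. mt-Nd2 followed at 1373, 1672 and 1960.5 CPM (1.22 and 1.43), with 890.3 in neutrophil-like cells. mt-Nd3 was at 454, 528 and 523 CPM, and mt-Nd4 at 1957, 1873 and 2199 CPM. mt-Nd5 had ratios under 1 in both erythroid gates (0.851 and 0.818), short of 1.5-fold, and near 1 in monocyte-like cells (1.01). The mitochondrial complex I sum was thus 1.22 and 1.39 times the stem-like level in early and later erythroid-like cells, where the complex IV sum was 0.706 and 0.802 times it. At matched depth the early erythroid-like value for complex I was lost: in the window that sum was 0.987 (0.957 to 1.02) in early and 1.14 (1.10 to 1.18) in later erythroid-like cells, with complex IV at 0.718 and 0.804. mt-Nd1 there was at 1.25 (1.19 to 1.32) and 1.36 (1.28 to 1.45). mt-Nd2 was at 0.964 (0.903 to 1.03) and 1.14 (1.05 to 1.23), mt-Nd3 at 0.932 and 1.14, and mt-Nd4 at 0.817 and 1.01, the early gate given first.

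mt-Nd6 is the only member on the other strand (chrM:13552-14070). It was at 58.9 CPM in stem-like cells, 33.7 in megakaryocyte-like, 29.3 in lymphoid-primed, 24.2 in early and 22.2 in later erythroid-like, 20.5 in GMP-like, 19.4 in monocyte-like and 15.2 in neutrophil-like cells (0.258, 0.221 to 0.300). The ratio was under 1 with its whole interval in all 7 gates, and in the depth window it was 0.483 (0.334 to 0.681) in lymphoid-primed and 0.198 (0.118 to 0.315) in neutrophil-like cells. It rests on 493 UMIs in stem-like cells.

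**Figure D5:**
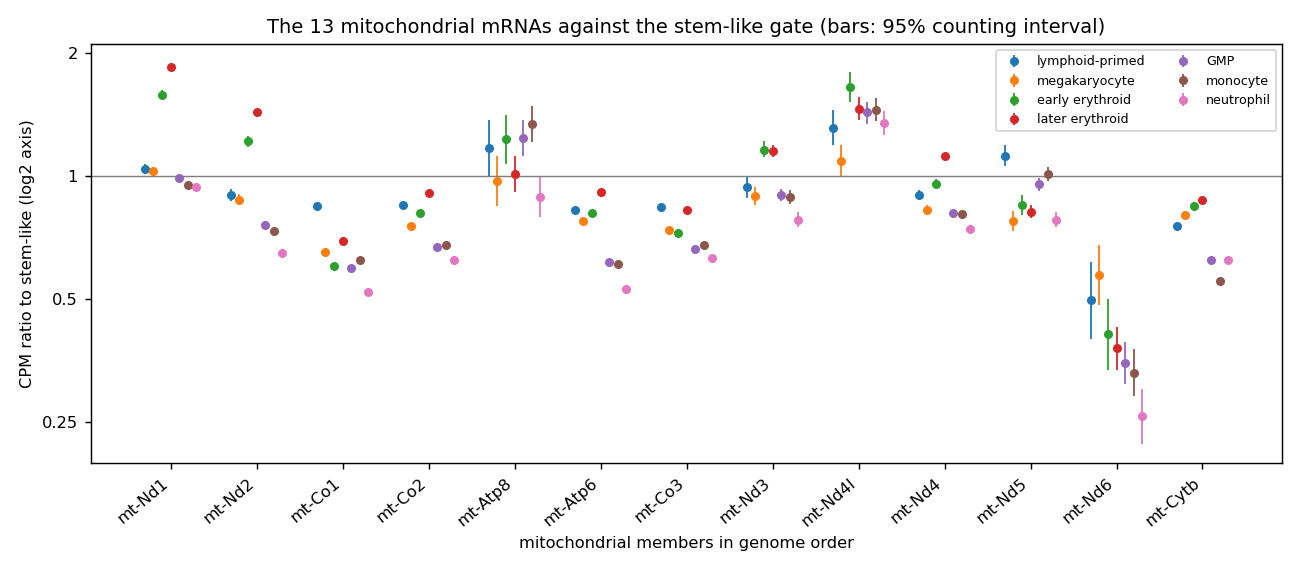
Ratio of CPM to the stem-like gate (log2 axis) for the 13 mitochondrial members in genome order; each point is 1 of 7 gates and bars are 95% counting intervals. Over all cells mt-Nd1 and mt-Nd2 stand above 1 in both erythroid gates (1.85 and 1.43 in the later one; at matched depth mt-Nd2 is at 0.964 in the early one) while mt-Co1 to mt-Co3 lie below 1 in every gate, and mt-Nd6 runs from 0.573 down to 0.258.

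For the mitochondrial members (shares of all genes in brackets) early erythroid-like cells had 2 higher (16.7%) and 2 lower (36.5%), and later ones 1 (20.9%) and 1 (45.0%). The other gates had 0 higher, where 9.74% to 15.8% of all genes were. Lower were 7 in neutrophil-like (51.7%), 5 in GMP-like (39.3%), 4 in monocyte-like (39.9%), 2 in megakaryocyte-like (23.0%) and 1 in lymphoid-primed cells (26.4%). The counts of 7 and 5 of 13 were near the shares of all genes, and no other count was above them. These levels were measured under a filter that bears on them directly. The study's filter keeps cells with a mitochondrial share under 7%, and the only genes of that share in the table are the 13 members. It removed 385 of 8030 barcodes that met the other limits. The share removed was 7.44% in later erythroid-like (64 of 860), 3.96% in lymphoid-primed, 3.60% in early erythroid-like, 1.43% in GMP-like, 1.09% in stem-like and 0.726% in neutrophil-like cells. Without the limit the mitochondrial sum of later erythroid-like cells was 46472 CPM, that of stem-like cells 47118.

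Other genes of mitochondrial energy metabolism, in lists drawn from general knowledge, were counted in the 7 gates together over stem-like cells, at the same fold. The background there was 17.0% of all genes higher and 39.4% lower. Of the 4 complex II genes Sdhb (1.88, 1.74 to 2.03) and Sdhd (2.10, 1.95 to 2.27) were higher, Sdhc was at 1.24 and Sdha, which holds the flavin, at 1.03. Cycs, cytochrome c, was at 90.0 CPM in stem-like cells and 285 in the 7 gates (3.17, 2.95 to 3.41), beyond any member. Of 78 mitochondrial ribosomal proteins 44 were higher and 0 lower (median 1.57), whereas of 91 cytosolic ribosomal proteins 6 were higher and 4 lower (median 1.04). Of 13 enzymes of the tricarboxylic acid cycle 5 were higher and 0 lower (median 1.38), and of 6 nucleotide and anion carriers 2 higher (median 1.42). Of 8 complex I assembly factors 1 was higher (median 1.30), a share not above the background.

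Genes that copy, transcribe or stabilise the mitochondrial genome and its RNA had a median of 0.923. Of 14, 2 were higher and 1 lower, neither share above the background. Slirp (1.78) and Lrpprc (1.60), which bind mitochondrial mRNAs together, were higher, and Mterf1a (0.479) was lower. The packaging factor Tfam was at 67.4 CPM in stem-like cells and 53.5 in the 7 gates (0.793, 0.727 to 0.866), which joins 0.643 in monocyte-like cells with 1.06 in early erythroid-like and 1.08 in megakaryocyte-like cells. Of 8 tested regulators of respiratory genes 0 were higher and 1 lower, neither share above the background. The lower one was Gabpb1 (0.571, 0.506 to 0.645), a subunit of GABP, with Nrf1 at 1.17, Gabpa at 0.821 and Yy1 at 0.920. Gabpb1 was at 0.470 to 0.629 in the erythroid, GMP-like, monocyte-like and neutrophil-like gates, but at 0.934 in megakaryocyte-like and 1.06 in lymphoid-primed cells.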

How the data were processed

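One library of sorted marrow cells was analysed. The deposited UMI counts per gene and barcode were made by the authors with Cell Ranger 6.0.2 on an mm10 transcriptome, from a 10x Chromium 3′ v3.1 library, and are not normalized. The kit named in the sample's labels is a bulk RNA kit. The study's limits kept barcodes with 1000 to 50000 UMIs, 1000 to 6500 genes and a mitochondrial share under 7%. Doublet calls (265 of 7645 cells, Scrublet in scanpy 1.11.5, expected rate 6%) stayed in, and 99 cells were too shallow to gate. A cell entered a gate with at least 3 of 8 markers and 2 more than in any other list, counted on 5000 UMIs. Erythroid-like cells were early with 0 and later with at least 2 red-cell markers. GMP-like cells were otherwise ungated cells with at least 3 of Mpo, Ctsg, Prtn3 and Ms4a3.

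Counts were summed per gate (numpy 2.4.6, pandas 2.3.3, scipy 1.17.1). Intervals are exact at 95%: Poisson for levels, conditional binomial for ratios, Clopper-Pearson for shares. PCR duplicates were removed by UMI, and intervals cover counting error only. The ratio calculation was tested on simulated data. Named members were the 13 mitochondrial genes and the 3 highest and 3 lowest nuclear ratios per gate with at least 500 UMIs. The paralogue sets, the pair Cox5a and Cox5b and the catalytic ATP synthase subunits were also named. Any other gene named was chosen after its values were seen. The members, lists and gates were chosen with earlier results of these data known. Alternatives varied the mitochondrial limit, doublets, gating, thinning, depth, denominator, fold and count minimum.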

Additional observations from a re-analysis of the deposited data

Results flagged for a closer look

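The 385 barcodes removed by the mitochondrial limit, which enter no comparison above, held nuclear members of the pathway at 18095 CPM (interval 17932 to 18258), where 3 UMIs would be 1.14 CPM. Their mitochondrial members stood at 238678 CPM, 13.2 mitochondrial UMIs for each nuclear one, with a median mitochondrial share of 35.2% and a median of 4598 UMIs per barcode. The signal was listed because it lies in data that the comparisons leave out. Whether these barcodes are damaged cells was not tested.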

How the results depend on the processing

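The neutrophil-like mitochondrial-to-nuclear ratio changed side of 1 in the window of 8000 to 16000 UMIs, from 0.908 to 1.08. The sums over stem-like cells kept their side of 1 under every alternative run, but single members did not: in the window 11 nuclear and 2 mitochondrial members changed side in early erythroid-like and 20 and 1 in lymphoid-primed cells, and with both intervals excluding 1 Cox6b2 did in GMP-like (0.908 to 1.20) and mt-Atp8 in neutrophil-like cells (0.887 to 1.42). The values for stem-like cells and for the 7 gates together were a mitochondrial-to-nuclear ratio of 2.58 and 1.15, and ratios to stem-like of 1.63 (nuclear sum) and 0.730 (mitochondrial sum). In that order they were 2.62, 1.21, unmoved and 0.753 without the mitochondrial limit, and 2.22, 1.11, 1.55 and 0.770 with a limit of 5%. With 4 markers they were 2.61, unmoved, 1.64 and 0.725, with another thinning seed 2.50, 1.15, 1.60 and 0.736, and with gates on unthinned counts 2.55, 1.17, 1.61 and 0.740. As medians over cells they were 2.83, 1.18, 1.73 and 0.695, and in the depth window, added after the data were seen, 2.62, 1.46, 1.39 and 0.773. Without doublet calls the pooled ratio was 1.14 and the mitochondrial sum 0.725. Against UMIs other than mitochondrial, ribosomal protein and haemoglobin genes the sums were 1.62 and 0.723. Of the 54 nuclear members higher, 1 nuclear member lower and 2 mitochondrial members lower, the counts were 23, 0 and 1 in the depth window (12.7% of all genes higher and 27.2% lower there) and 12, 0 and 1 at a fold of 2 (9.77% and 26.6%), and 2 nuclear members were lower with at least 1 UMI per gene. The lower counts at a fold of 2 follow from the stricter fold, and the cause of the other differences was not tested. No paired analysis was possible because there is 1 library, and no replicate could be left out.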

Other observations

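In CPM and in the ratio, gates outside the comparisons lay between the extremes. The 342 basophil or mast cell-like cells had nuclear members at 21345 CPM, mitochondrial members at 32604 CPM and a ratio of 1.53. The 303 erythroid-like cells between the early and later gates had 30775 and 38294 CPM and a ratio of 1.24. The 1027 ungated cells had 20752 and 37342 CPM and a ratio of 1.80.

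Ppargc1a, a coactivator known for driving mitochondrial biogenesis, had 25 UMIs in the 818 stem-like cells and 12 in the 5038 cells of the 7 other gates (ratio 0.0347, interval 0.0159 to 0.0716). With fewer than 50 UMIs in all it was left out of the counts of regulators.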
